A study of Mus musculus with 10 samples.

Results

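Mutant and wildtype lineage-labelled cells of the same kind of mouse lung were compared 2 weeks after induction, as 2 libraries of RFP+ cells against 2 libraries of YFP+ cells from Sftpc-CreERT2;Red2Kras mice. Barcodes were kept when they held at least 1000 genes, at most 50000 UMIs (unique molecular identifiers, which count captured RNA molecules), at most 15% mitochondrial UMIs and no UMI of Ptprc, the pan-leukocyte marker CD45. The filter left 4096 and 2829 RFP+ cells and 4306 and 1138 YFP+ cells, which together are 12369 of the 30599 cells kept in all 10 libraries of the series and come from 42012 deposited barcodes. UMIs of the kept cells were summed per gene within each library, so that the library, and not the cell, was the unit of comparison.

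In these animals tamoxifen, given in 3 doses of 0.2 mg per gram of body weight, activates a Cre recombinase under the Sftpc promoter, which is active in alveolar type 2 (AT2) cells. Recombination of the Red2Kras allele yields mutant cells that carry RFP and wildtype cells that carry YFP, so the groups share genotype, driver, tamoxifen and tissue. Cells were sorted as EpCAM+ and RFP+ or YFP+ from the distal lung of at least 2 pooled lungs per sample, hence a library is a pool and not a mouse, and sorting kept descendants of labelled cells whatever they had become. A single RFP+ and a single YFP+ library of Sftpc-CreERT2;R26R-Confetti mice, in which both colours are wildtype and the tamoxifen doses were the same, gave the background level, and 4 Red2Kras libraries taken at 4 days gave the earlier time point. The libraries were prepared on more than a single day, but no source used here gives the day of a library. Both colours were isolated at each time point, and the sources used here do not state whether the RFP+ and YFP+ libraries of a replicate number came from the same lungs, so p-values measure only the spread between these samples.

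AT2 cells are the cuboidal surfactant-producing cells of the alveolus and also its facultative stem cells. They synthesise large amounts of surfactant phospholipid and the surfactant proteins, of which Sftpc is the most specific, and after injury they pass through transitional states marked by keratins and claudins (damage-associated transient progenitors, DATPs) on the way to flat alveolar type 1 (AT1) cells. Growth factor receptors such as the EGF receptor signal in epithelial cells through the MEK and ERK kinases. ERK in turn induces its own inhibitors, among them the Dusp phosphatases and Sprouty proteins, as well as ligands of the EGF receptor.

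The kept cells held 71669755 and 39948309 UMIs in the RFP+ libraries and 26785811 and 8163707 in the YFP+ libraries. Median depth per cell was 15685 and 13199 UMIs in RFP+ cells but 5833.5 and 6577 in YFP+ cells, so that RFP+ cells were deeper in every pairing of libraries, and shares of cells with a UMI are therefore given after each cell had been thinned to 2000 UMIs. The Ptprc filter removed 3.51% and 19.8% of the barcodes that passed quality in the RFP+ libraries, and 3.13% and 34.8% in the YFP+ libraries. The second library of each colour thus held many more leukocyte barcodes, and the second YFP+ library kept the fewest cells. Pairs of these libraries shared between 2 and 11 cell barcodes, at most 0.439% of the smaller library. Levels below are in CPM, a gene's share of its library's UMIs scaled to the usual CPM base with edgeR's TMM factors.

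No gene passed an adjusted p of 0.05 among the 14828 tested (edgeR's quasi-likelihood test with Benjamini-Hochberg adjustment over all genes, as for every adjusted p below, smallest adjusted p 0.314), and every gene below therefore missed that threshold in this fit. At an unadjusted p below 0.05 there were 1883 genes, 12.7% of those tested, of which 1067 (7.2%) were higher and 816 (5.5%) lower in RFP+ cells. The RFP+ and YFP+ libraries did not overlap for 7372 genes, 49.7% of those tested, with 4021 (27.1%) higher and 3351 (22.6%) lower. DESeq2's Wald test on the same counts called 179 genes higher and 151 lower at an adjusted p below 0.05. With the replicate number as a block edgeR called 2325 genes over the 4 libraries of 2 weeks, where it called 0 without the block. Over the 8 Red2Kras libraries it called 0 with and without the block, which there gives both time points the same replicate shift. The count over the 4 libraries thus depends on the block, and no source used here states whether the numbers pair the libraries. Without the second RFP+ library the count at an unadjusted p below 0.05 was 689, and it was 1169 without the first YFP+ library, 1208 without the second YFP+ library and 1668 without the first RFP+ library. Wherever counts with a library left out are given below, they follow this order of libraries left out: first RFP+, second RFP+, first YFP+, second YFP+. List members with too few counts to be tested are left out of the counts of members, and where any are left out the number listed is given, since a member can pass that filter through the group in which it is high.

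The genes with the smallest p that were higher in RFP+ cells, at 20 CPM or more and without overlap, were of mixed function. Hist1h1b, a linker histone made in S phase whose mRNA mostly lacks the poly(A) tail that this kind of library captures, reached 27.7 and 32.5 CPM in RFP+ libraries against 3.397 and 6.298 CPM in YFP+ libraries (6.34-fold; log2 2.66, SE 0.36, adjusted p = 0.314). The group levels were 30.1 ± 3.43 CPM against 4.85 ± 2.05 CPM (mean ± SD, n = 2 libraries each), and Confetti cells had 0.691 and 0.728 CPM. Psrc1, a spindle protein, stood at 21.8 and 29.4 against 5.62 and 6.16 CPM, and Stk39, a kinase that acts on ion cotransporters, at 48.3 and 70.6 against 17.2 and 18.5 CPM. For Psrc1 and Stk39 the YFP+ libraries sat near the Confetti level (5.82 and 5.88 and 14.3 and 13.1 CPM). Mmp3, the matrix metalloprotease stromelysin-1, had the widest gap, at 38.3 and 15.8 CPM against 0.491 and 0.5598 CPM (log2 5.704, SE 0.90, adjusted p = 0.314). Gdf15, a stress-induced cytokine of the TGF-beta family, was the most abundant of the 12, at 247 and 228 CPM in RFP+ and 70.5 and 83.3 CPM in YFP+ libraries (3.09-fold).

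Bcr, a signalling protein with a kinase domain, stood at 106 and 103 against 36.8 and 32.7 CPM, with RFP+ replicates nearly equal. Mettl1, a tRNA methyltransferase, and Gar1, a protein of the small nucleolar RNA machinery, both act on non-coding RNA and were 2.72-fold and 2.84-fold higher. The remaining 4 were the adhesion protein gene Mpzl2 (2.72-fold), Pf4, which encodes the chemokine platelet factor 4 (3.797-fold), the lipoprotein gene Apoa1 (4.27-fold) and Mtap (4.43-fold), an enzyme of methionine salvage. For Apoa1, as for Hist1h1b, the YFP+ libraries, at 4.87 and 6.02 CPM, also stood above the Confetti libraries at 0.519 and 0.667 CPM. The adjusted p was 0.314 for each of these 12 genes and of the 12 described next.

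The genes with the smallest p that were lower in RFP+ cells, by the same rule, were also of mixed function. Fcgrt, the neonatal Fc receptor that carries IgG and albumin across epithelia, stood at 7.32 and 5.95 CPM in RFP+ and 20.04 and 37.2 CPM in YFP+ libraries (4.28-fold lower; log2 -2.10, SE 0.32, adjusted p = 0.314). Cpn1, the catalytic subunit of carboxypeptidase N, was at 16.8 and 13.1 against 44.2 and 63.96 CPM. Scgb1c1, a secretoglobin, was at 39.5 and 27.8 against 119.7 and 131 CPM, with Confetti libraries at 178 and 167 CPM. The RFP+ libraries lay below both the YFP+ and the Confetti libraries for each of these genes. Khk, which phosphorylates fructose, was 4.12-fold lower, and Cox7a1, a subunit of cytochrome c oxidase, 4.79-fold lower. The dynein light chain gene Dynlrb2 (3.77-fold), the chemokine gene Ccl27a (2.21-fold), the pseudokinase gene Nrbp2 (2.89-fold), the BH3-only death gene Bik (2.81-fold), Cytip, a partner of cytohesins (3.46-fold), Smim27, a small membrane protein (2.63-fold), and the long non-coding RNA AL590144.2 (3.19-fold) completed the 12. Dynlrb2 is also a marker of ciliated cells, whose summed markers were lower in RFP+ cells as given further on. Fcgrt and Cytip were more frequent in leukocyte barcodes than in the kept cells. After thinning, a Fcgrt UMI was found in between 12.8% and 28.5% of the barcodes removed by the Ptprc filter against 1.17% to 6.50% of kept cells, and a Cytip UMI in 31.9% to 39.6% against 1.34% to 6.33%. Both genes were highest in the kept cells of the second YFP+ library, which also had the highest macrophage sum of the 2 weeks libraries. The part of ciliated cells and leukocytes in these differences was not tested.

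**Figure D1:**
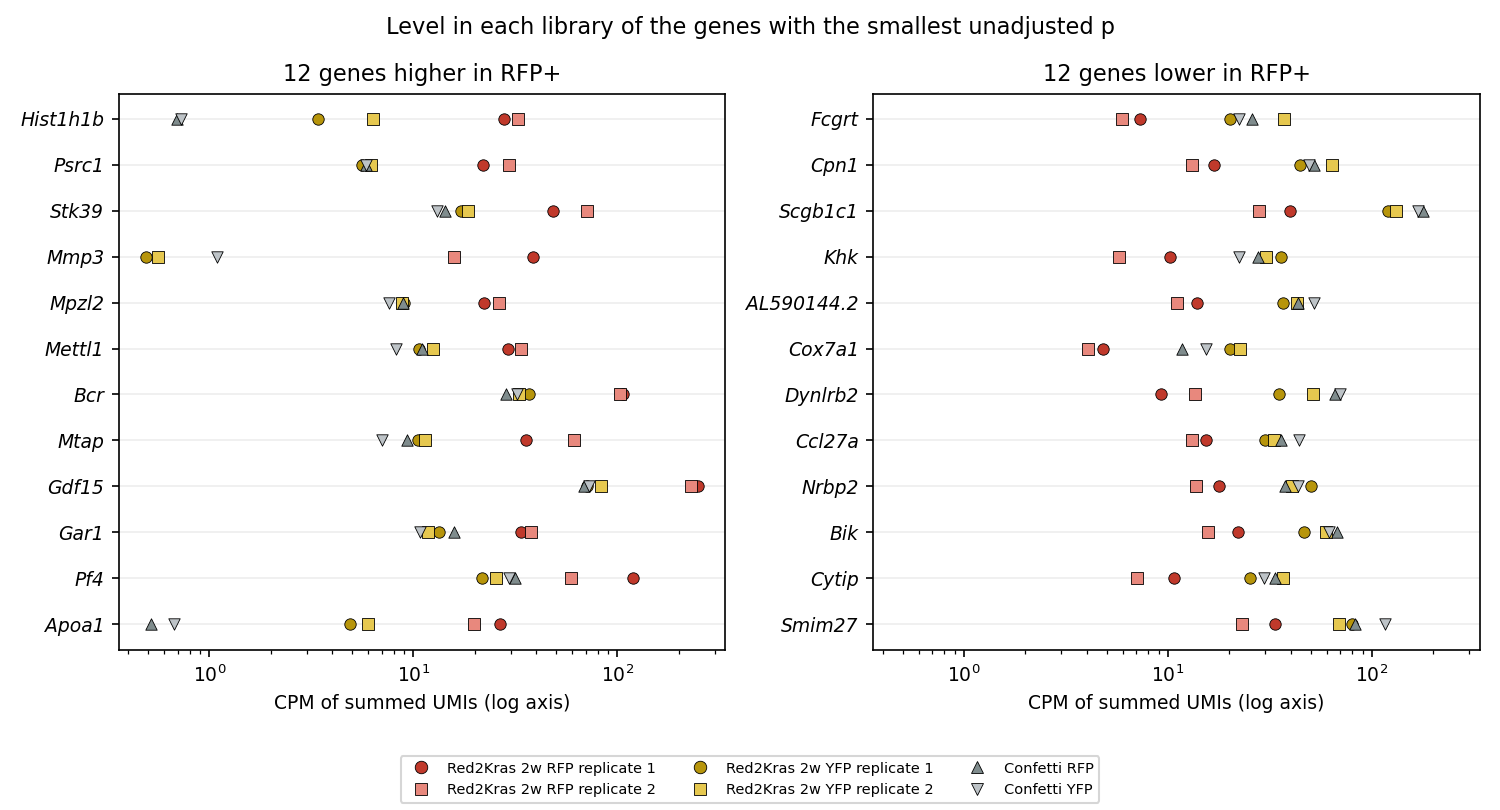
Level of the 24 genes in each library, in CPM of summed UMIs on a log axis, for both 2 weeks RFP+ libraries (red), both 2 weeks YFP+ libraries (yellow) and the Confetti libraries (grey). The red points lie to one side of the yellow ones in every row by the rule that chose the genes, and Gdf15 ranges from 70.5 to 247 CPM over the 2 weeks libraries, with the Confetti libraries at 68.2 and 72.7 CPM, while a Confetti library at 0 is not drawn for Mmp3.

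The transitional (DATP) markers were higher in RFP+ cells for most members. Of 20 members, 13 were higher and 1 lower at an unadjusted p below 0.05, where 7.2% and 5.5% of all genes were, and 17 were higher without overlap, where 27.1% of all genes were. The median log2 fold change was 1.91 against -0.01 over all genes, and it ranged from 1.73 to 2.27 when each 2 weeks library was left out in turn. Part of this list and of the primed and Cd177+ mixed lists was named by the study on these samples, so their counts are not independent evidence of direction. Krt8 and Krt18, the paired keratins of simple epithelia, are made together. Krt8 stood at 1013 and 1417 CPM in RFP+ and 391 and 377 CPM in YFP+ libraries (log2 1.66, SE 0.33, adjusted p = 0.314). Krt18 stood at 1574 and 2683 CPM in RFP+ and 499.9 and 634 CPM in YFP+ libraries (log2 1.91, SE 0.37, adjusted p = 0.314). Tnip3, an inhibitor of NF-kB signalling, was at 63.7 and 54.4 CPM in RFP+ and 12.7 and 8.54 CPM in YFP+ libraries (5.51-fold). The single lower member was Nupr1, a stress-response factor, named here after its value was seen. With a library left out 10, 7, 9 and 11 members were higher at an unadjusted p below 0.05.

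Krt19, Krt7, Cldn4 and Cldn6 were the other keratins and claudins that were higher at an unadjusted p below 0.05. Krt19, a keratin of simple and progenitor epithelia, stood at 371 and 780.1 against 74.3 and 147 CPM, and Krt7 at 951 and 1710.4 against 129 and 399.8 CPM. Of 9 keratins tested of 13 listed, 4 were higher and none lower at an unadjusted p below 0.05, where 7.2% of all genes were higher (4, 4, 3 and 4 with a library left out), and of the other 5 Krt10 had a log2 fold change of -0.47 and Krt80 one of 1.17. Cldn4, a tight junction protein that marks DATPs, was at 140.0 and 216 CPM in RFP+ libraries and 9.66 and 39.05 CPM in YFP+ libraries (7.41-fold; log2 2.89, SE 1.11, adjusted p = 0.372), beside 0.9795 and 2.06 CPM in Confetti cells. The second YFP+ library was the higher of the YFP+ pair for each of Krt19, Krt7 and Cldn4. Cldn6, an embryonic claudin, was at 6.69 and 14.5 against 0.377 and 1.68 CPM. Among 12 claudins tested of 13 listed 2 were higher at that p. Of the other 10, Cldn2 (log2 2.08), Cldn7 (log2 0.52) and Cldn3 (log2 0.35) were higher without overlap and Cldn1 (log2 -2.73), with at most 14 UMIs in a 2 weeks library, was lower without overlap. Among 13 integrin genes and ligands tested of 14 listed 3 were higher, namely Itgb6 (14.5 and 22.8 against 9.85 and 7.98 CPM), a subunit that activates latent TGF-beta, the collagen receptor subunit Itga2 (108 and 146 against 4.83 and 22.4 CPM) and Spp1, the integrin ligand osteopontin (1975 and 1092 against 71.1 and 237 CPM).

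The genes listed for the Cd177+ mixed state lay above the YFP+ libraries in both RFP+ libraries. All 8 members were higher without overlap, where 27.1% of all genes were, 4 of them at an unadjusted p below 0.05, where 7.2% of all genes were, and the median log2 fold change was 3.103 (2.15 to 4.44 with each library left out, when 3, 3, 3 and 4 members were higher at that p). Cd38, an enzyme that consumes NAD, stood at 24.9 and 52.6 against 3.095 and 9.52 CPM (log2 2.67, SE 0.64, adjusted p = 0.314). Cd177, a surface protein best known from neutrophils, was at 28.4 and 49.7 CPM in RFP+ libraries against 0.642 and 8.82 CPM in YFP+ libraries (log2 3.15, SE 1.02, adjusted p = 0.349). Dlk1, a Notch-family ligand of fetal tissue, was at 359 and 303 against 4.94 and 55.1 CPM, and Hmga2, a fetal chromatin protein, at 58.6 and 46.7 against 2.38 and 4.48 CPM. The paper reports Hmga2 for oncogenic DATP-like cells set against regeneration, so the list does not hold markers of the mixed state only. The YFP+ libraries stood far apart for Cd177 and Dlk1, and the second was the higher. Sox9, a transcription factor of distal lung progenitors, reached 26.9 and 17.4 against 1.59 and 3.499 CPM (log2 3.19, SE 1.37, adjusted p = 0.394).

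The promoters of Cldn4 and Mmp3 are shown because their windows hold the letters bound by AP-1, the dimer of Fos and Jun proteins. Fosl1, an AP-1 subunit, was at 22.1 and 16.6 CPM in RFP+ and 3.397 and 3.78 CPM in YFP+ libraries. Fos and Jun overlapped, and 2 of 18 AP-1 and immediate-early genes were higher at an unadjusted p below 0.05, where 7.2% of all genes were. The RefSeq windows (GRCm38.p6) run from 250 bases before to 50 bases after the start, and capitals mark TGANTCA, searched on both strands.
Cldn4, chr5:134946885-134947184, minus strand: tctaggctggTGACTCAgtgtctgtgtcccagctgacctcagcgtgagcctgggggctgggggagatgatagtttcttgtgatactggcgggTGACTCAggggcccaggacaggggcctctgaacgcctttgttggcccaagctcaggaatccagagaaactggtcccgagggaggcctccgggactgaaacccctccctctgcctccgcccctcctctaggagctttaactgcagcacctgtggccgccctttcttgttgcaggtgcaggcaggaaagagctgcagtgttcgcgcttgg
Mmp3, chr9:7445572-7445871, plus strand: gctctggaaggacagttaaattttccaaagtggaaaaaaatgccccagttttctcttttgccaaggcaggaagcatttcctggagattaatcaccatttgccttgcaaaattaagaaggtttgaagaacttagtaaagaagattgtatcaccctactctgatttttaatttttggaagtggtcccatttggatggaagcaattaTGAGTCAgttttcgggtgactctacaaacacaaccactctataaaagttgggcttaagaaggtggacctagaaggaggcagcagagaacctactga
Cldn4 held 2 matches, the first bases of which lie 240 and 158 bases before the start, and Mmp3 held 1, which begins 46 bases before it. The motif occurred in 5.67% of 14219 promoters of tested genes. Counted by gene, it occurred in 6.75% of the 11171 tested genes with a promoter, in 3 of 15 DATP genes, in 1 of 10 of the top higher and 1 of 9 of the top lower genes, in 1 of 15 AT2 genes, and in none of 6 genes each of the EGF receptor and Cd177+ mixed lists. A match is a description of the window only.

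**Figure D2:**
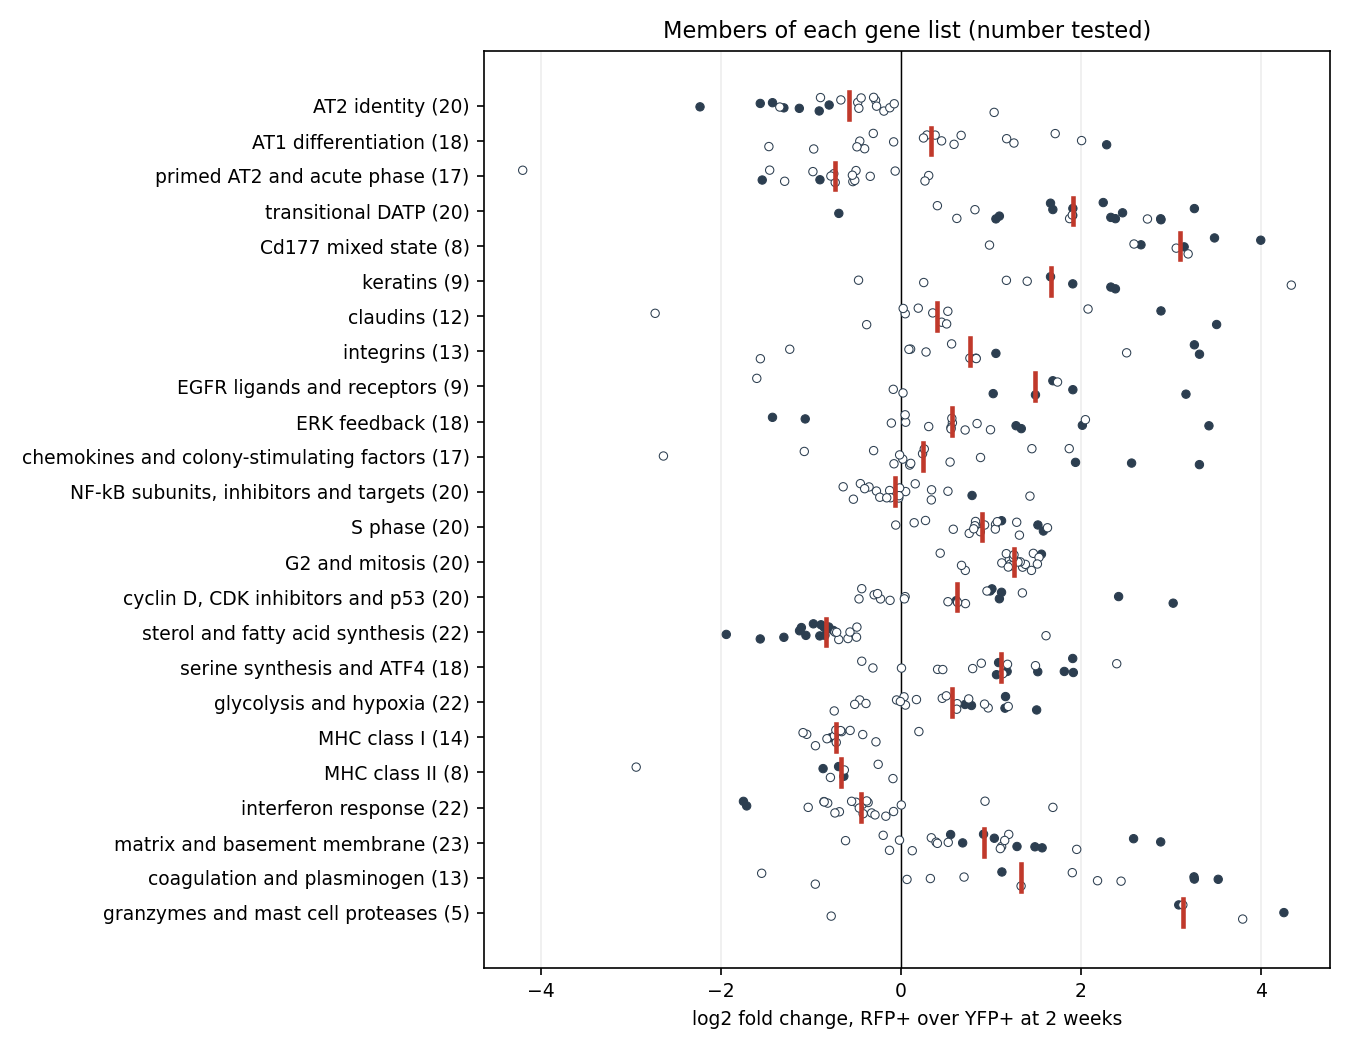
log2 fold change of RFP+ over YFP+ cells at 2 weeks for every tested member of 24 gene lists (1 point a gene, with the number tested in parentheses). Filled points had an unadjusted p below 0.05, none had an adjusted p below 0.05, and red bars are medians, from -0.73 for the primed AT2 list and -0.83 for sterol and fatty acid synthesis to 3.103 for the Cd177+ mixed list and 3.13 for the granzyme and mast cell protease list, of which 5 of 13 genes were tested and whose median ran from 0.29 to 4.65 with each library left out.

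AT2 identity genes were lower in RFP+ cells, but not evenly. Of 20 members, 7 were lower and none higher at an unadjusted p below 0.05, where 5.5% of all genes were lower. Without overlap 14 were lower, where 22.6% of all genes were, and 1 higher, and the median log2 fold change was -0.58 (-0.93 to -0.49 with each library left out, when 6, 3, 4 and 4 members were lower). Sftpc, the surfactant protein that also drives the Cre line, stood at 67970.5 and 67884 CPM in RFP+ libraries and 130861 and 166669 CPM in YFP+ libraries (2.19-fold lower; log2 -1.13, SE 0.47, adjusted p = 0.387). Confetti libraries lay between, at 113131 and 91688 CPM. Hc, complement component 5, had the largest difference of the list, at 547 and 212 against 1970.2 and 1601 CPM (4.71-fold lower; log2 -2.23, SE 0.51, adjusted p = 0.314). Etv5, an ETS factor that maintains AT2 cells, was at 119.7 and 53.1 against 249 and 216 CPM. S100g, a calcium-binding protein counted in the S100 list, was at 905 and 453 against 3378 and 4105 CPM (5.51-fold lower). The single higher member was Ctsh, a lysosomal protease (log2 1.03), named after its value was seen. The surfactant genes Sftpb and Sftpd, in contrast, overlapped between the groups, with log2 fold changes of -0.08 and -0.19. Summed over the list, AT2 genes made up 144313 and 114159 CPM in RFP+ and 240617 and 269450.0 CPM in YFP+ libraries. In sums of this kind fewer cells of a type and less RNA of it per cell cannot be told apart.

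The distribution over cells, each thinned to 2000 UMIs, was therefore examined. Sftpc took a median of 8.45% and 6.95% of a cell's UMIs in RFP+ libraries, 13.7% and 17.2% in YFP+ libraries, and 12.2% and 11.1% in Confetti. The lower quartile was 1.65% and 0.1% in RFP+ cells but 11.2% and 12.6% in YFP+ cells, so the lowest quartile of RFP+ cells had little Sftpc. The upper parts of the distributions overlapped, with upper quartiles of 12.2% and 11.9% in RFP+ cells. For the whole AT2 list the medians were 17.9% and 11.7% against 24.8% and 27.9%. In the DATP list the medians lay close together (0.45% and 0.65% against 0.3% and 0.25%) and the 95th percentiles far apart (5.08% and 5.05% against 0.85% and 1.05%). DATP markers were thus concentrated in a part of the RFP+ cells.

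**Figure D3:**
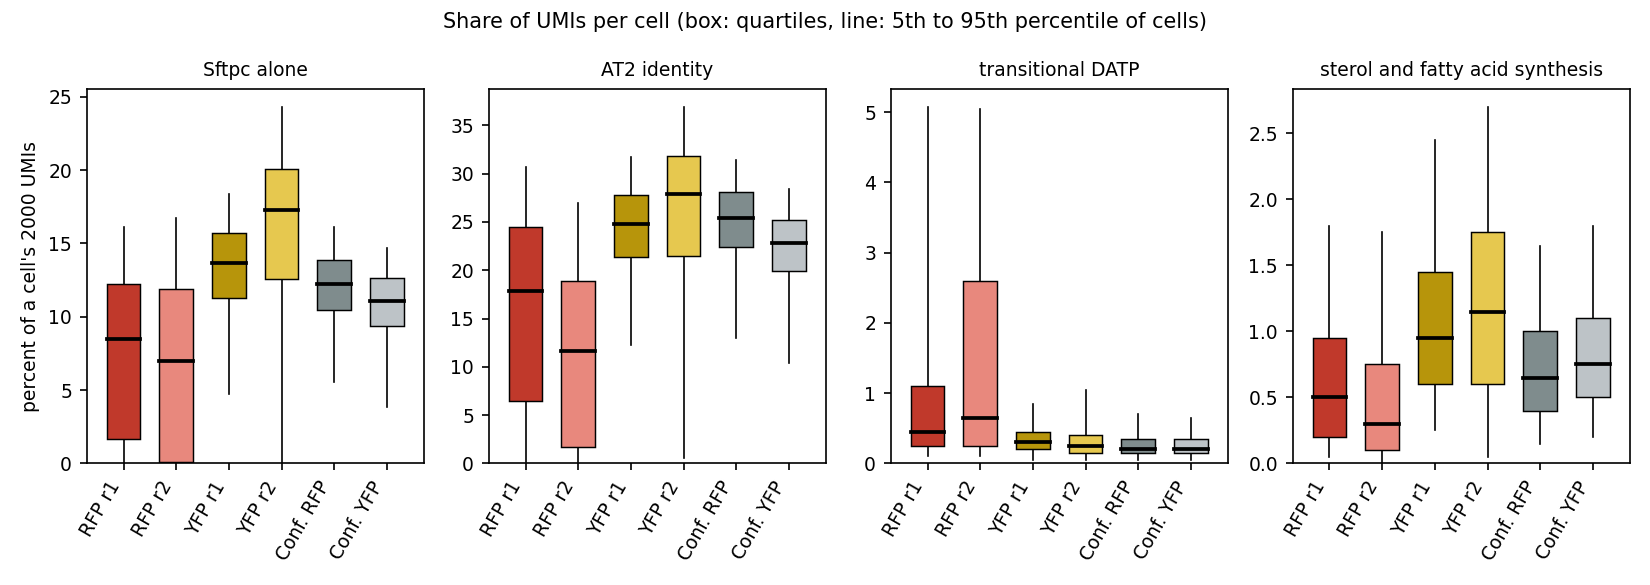
Percent of a cell's UMIs, after thinning to 2000, taken by Sftpc and by the AT2 identity, DATP and sterol and fatty acid synthesis lists in each 2 weeks and Confetti library (boxes are quartiles, thick lines medians and thin lines the 5th to 95th percentile of cells). Sftpc boxes of the RFP+ libraries reach down to 1.65% and 0.1% while the YFP+ boxes begin at 11.2% and 12.6%.

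AT1 genes showed no common direction. Of 18 members 1 was higher at an unadjusted p below 0.05, beside 7.2% of all genes, and the median log2 fold change of 0.33 changed sign to -0.25 without the second RFP+ library. That member was Pdpn, podoplanin, at 43.4 and 82.2 against 8.87 and 17.2 CPM (log2 2.29, SE 0.49, adjusted p = 0.314). Ager, the receptor that is the usual AT1 marker, overlapped at 592 and 1083 against 997 and 1221 CPM, and Hopx, a homeodomain cofactor of AT1 cells, overlapped at 27.4 and 234 against 29.9 and 86.5 CPM. The second RFP+ library was the highest for Hopx, and the log2 fold change of Hopx was -1.08 without it.

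Primed AT2 and acute-phase genes, the genes of inflammation-exposed AT2 cells, were lower in RFP+ cells for 2 of 17 members and higher for none at an unadjusted p below 0.05, where 5.5% of all genes were lower, and 10 were lower without overlap, where 22.6% of all genes were. The median log2 fold change of -0.73 ranged from -1.31 without the first RFP+ library to -0.35 without the second, and with a library left out 1, 2, 2 and 1 members were lower at that p. Hp, haptoglobin, stood at 576 and 479 against 1318 and 1758 CPM (log2 -1.54, SE 0.39, adjusted p = 0.317), and the chitinase-like gene Chil1 at 1687 and 1798 against 2677 and 3833 CPM. Lcn2, the iron-sequestering lipocalin, did not overlap between 5398 and 3573 CPM in RFP+ and 6869.6 and 6137 CPM in YFP+ libraries, with log2 -0.54, SE 0.61, adjusted p = 0.716. Confetti libraries had only 2060.0 and 1729 CPM of Lcn2, below all 4 of the 2 weeks libraries. Lrg1, a secreted acute-phase glycoprotein, gave the same order, with 1414 and 1373, 1838 and 2144 and 620.3 and 553 CPM in RFP+, YFP+ and Confetti libraries. Il33, an alarmin, was at 479 and 280.4 against 969 and 529 CPM.

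Antigen presentation genes, which AT2 cells express in normal lung, had negative medians but few members past an unadjusted p of 0.05. Of 8 MHC class II genes 3 were lower and none higher at that p, where 5.5% of all genes were lower, and the median log2 fold change was -0.67. H2-Ab1, a chain of the MHC class II dimer, stood at 601 and 531 against 803 and 955 CPM, H2-Eb1, another chain, at 403 and 340.0 against 544 and 658 CPM, and H2-DMa, which loads peptide, at 78.7 and 78.5 against 110.5 and 176 CPM. Class I genes had a median log2 fold change of -0.72, with 10 of 14 lower without overlap, where 22.6% of all genes were, and 1 lower at an unadjusted p below 0.05, a share near the 5.5% of all genes (3, 0, 1 and 1 with a library left out). Macrophages also express class II genes, and the second YFP+ library, the highest for each of these 3 genes, held 98 of 1138 kept cells with macrophage markers. Without that library the class II median was -0.50, and with a library left out 0, 0, 1 and 0 class II genes were lower at an unadjusted p below 0.05. The part of these macrophages in the class II difference was not tested.

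Most ligands of the EGF receptor were higher in RFP+ cells, and no receptor gene was. Of 9 members tested of 11 listed 5 were higher and none lower at an unadjusted p below 0.05, where 7.2% of all genes were higher, and all 5 were ligands. Areg, amphiregulin, was the most abundant, at 969 and 1215 CPM in RFP+ libraries against 346 and 235 CPM in YFP+ libraries (3.76-fold; log2 1.91, SE 0.40, adjusted p = 0.314). Hbegf, heparin-binding EGF-like growth factor, stood at 215 and 222 against 86.1 and 49.1 CPM, and Btc, betacellulin, at 13.6 and 15.7 against 5.32 and 5.04 CPM. Ereg, epiregulin, was at 98.3 and 66.1 against 7.32 and 11.2 CPM (8.99-fold; log2 3.17, SE 0.94, adjusted p = 0.337). Both YFP+ libraries also stood above Confetti cells for Areg (154 and 109 CPM) and Hbegf (40.4 and 35.5 CPM). Tgfa was the fifth ligand (log2 1.02). The remaining tested ligand, Epgn, did not pass that p, at 0.883 and 0.741 against 0.302 and 0.140 CPM. The receptor genes Erbb2 and Erbb3 overlapped, with log2 fold changes of -0.09 and 0.02, and Egfr did not overlap (log2 -1.60) but missed an unadjusted p of 0.05. With each library left out the median of the list ranged from 1.35 to 1.60, and 4, 5, 3 and 4 members were higher at an unadjusted p below 0.05.

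The feedback genes of ERK signalling split. Of 18 members 4 were higher and 2 lower at an unadjusted p below 0.05, where 7.2% and 5.5% of all genes were. The median log2 fold change of 0.57 ranged from 0.24 without the second YFP+ library to 1.01 without the first, and with a library left out 3, 4, 6 and 3 members were higher and 2, 0, 1 and 1 lower at that p. Dusp6, the cytoplasmic ERK phosphatase, stood at 122 and 112 against 56.7 and 39.3 CPM (log2 1.28, SE 0.31, adjusted p = 0.314), the nuclear phosphatase gene Dusp4 at 11.8 and 15.8 against 3.21 and 3.64 CPM, and the Sprouty gene Spry4 at 8.91 and 6.298 against 3.55 and 2.38 CPM. Etv4, an ETS factor downstream of ERK, was at 18.1 and 29.7 against 0.906 and 3.92 CPM (10.7-fold; log2 3.42, SE 0.77, adjusted p = 0.314). Its relative Etv5 was lower, as given among the AT2 genes, and so was Spry2 (log2 -1.07).

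Proliferation genes had positive medians whose size depended on single libraries. S-phase genes had a median log2 fold change of 0.91 and genes of G2 and mitosis one of 1.25, with 3 and 1 of 20 members higher and none lower at an unadjusted p below 0.05, where 7.2% of all genes were higher, so that the count for G2 and mitosis did not exceed that share. Without overlap 9 and 13 of 20 were higher, where 27.1% of all genes were. Mcm3, a subunit of the replicative helicase, stood at 24.1 and 14.4 against 7.66 and 5.04 CPM, and Hmmr, a spindle and hyaluronan-binding protein, at 24.8 and 13.1 against 7.78 and 4.898 CPM. Mki67, the Ki-67 antigen, was at 40.5 and 17.9 against 14.8 and 10.2 CPM (log2 1.22, SE 0.58, adjusted p = 0.424). In each of these genes the first RFP+ library was the highest and the second lay between it and the YFP+ libraries. Without the first RFP+ library the medians were 0.33 and 0.48, and without the second they were 1.35 and 1.76, and with a library left out 0, 6, 2 and 0 S-phase genes and 0, 14, 2 and 0 genes of G2 and mitosis were higher at that p. After thinning, 5.89% and 2.48% of RFP+ cells had an Mki67 UMI, against 2.07% and 1.14% of YFP+ cells and 1.66% and 2.66% of Confetti cells. The barcodes removed by the Ptprc filter had one in 3.36% and 6.45% in the RFP+ libraries and 6.47% and 5.10% in the YFP+ libraries, above the kept cells of every 2 weeks library but the first RFP+ library. These barcodes may express Mki67 themselves, so their share is not a plain background. Whether the shares of kept cells reflect a difference in dividing cells was not tested.

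Cyclin D genes, cell cycle inhibitors and p53 genes followed. Of 20 members 7 were higher and none lower at an unadjusted p below 0.05, where 7.2% of all genes were higher (median log2 fold change 0.62, and 5, 2, 2 and 6 with a library left out). Ccnd1, the cyclin that growth signals induce, stood at 263 and 368 against 148 and 166 CPM and Trp53, the gene of p53, at 53.6 and 45.8 against 23.8 and 21.97 CPM (log2 1.12, SE 0.28, adjusted p = 0.317). Cdkn2a, which encodes the inhibitors p16 and p19ARF, was at 36.98 and 62.1 CPM in RFP+ libraries and 2.72 and 9.94 CPM in YFP+ libraries (8.14-fold; log2 3.03, SE 0.88, adjusted p = 0.336). Confetti libraries had 0.634 CPM and none. Cdkn2b, which encodes p15, was at 34.3 and 89.6 against 6.79 and 16.8 CPM. A Cdkn2a UMI was found in 4.87% and 10.05% of thinned RFP+ cells against 0.163% and 0.703% of YFP+ cells. The barcodes removed by the Ptprc filter had one in 2.01% and 2.87% in the RFP+ libraries, and in 4.11% in the second YFP+ library, above the share of its kept cells. The second RFP+ library, the lower in Mki67, was the higher in both Cdkn2a and Cdkn2b. Cdkn2a (chr4:89274471-89294653), Cdkn2b (chr4:89306299-89311039) and Mtap (chr4:89137122-89181081), listed among the top higher genes, are neighbours on chromosome 4. Myc, a growth-promoting transcription factor, stood at 33.9 and 16.6 against 5.59 and 3.64 CPM.

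Sterol and fatty acid synthesis genes were lower in RFP+ cells in nearly every member. Of 22 genes 14 were lower and none higher at an unadjusted p below 0.05, where 5.5% of all genes were lower, and 21 were lower without overlap, where 22.6% of all genes were. The other gene, Elovl6, which elongates fatty acids, had a log2 fold change of 1.61 and is named after its value was seen. The median log2 fold change was -0.83, and it ranged from -0.95 to -0.68 with each library left out, when 10, 4, 11 and 8 genes were lower at that p. Insig1, the sterol sensor that holds back SREBP factors, stood at 87.8 and 46.3 against 244 and 272 CPM (log2 -1.94, SE 0.46, adjusted p = 0.314). Scd1, the desaturase that makes oleate and palmitoleate, was at 2679 and 2100.4 against 6586 and 7558 CPM, and Fasn, fatty acid synthase, at 299 and 299 against 635 and 842 CPM. Summed over the list, the level was 5550.4 and 4767 CPM in RFP+, 11063 and 13089 CPM in YFP+ and 7206 and 7229 CPM in Confetti libraries, so that the YFP+ libraries lay above the Confetti libraries and the RFP+ libraries below them. The same order held per cell, where the list took a median of 0.5% and 0.3% of UMIs in RFP+ cells, 0.95% and 1.15% in YFP+ cells and 0.65% and 0.75% in Confetti cells. Scd1 and Fasn are counted in the AT2 list as well.

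Serine and amino acid synthesis genes, many of which the stress factor ATF4 controls, lay on the other side. Of 18 members 7 were higher and none lower at an unadjusted p below 0.05, where 7.2% of all genes were higher, 13 were higher without overlap, where 27.1% of all genes were, and the median log2 fold change was 1.11 (0.73 to 1.35 with each library left out). Asns, asparagine synthetase, stood at 24.8 and 40.4 against 7.096 and 10.4 CPM (log2 1.92, SE 0.49, adjusted p = 0.318). Psat1, the aminotransferase of serine synthesis, was at 24.4 and 29.4 against 6.68 and 7.697 CPM, and the mitochondrial folate enzymes Mthfd2 and Shmt2 were 2.87-fold and 2.09-fold higher. Atf4 itself had a log2 fold change of 0.00. With a library left out 5, 2, 1 and 6 members were higher at that p.
The Asns promoter is shown because its window holds the letters of the ATF4 response element, TGATGNAA (capitals, both strands searched, a motif added after the list had been seen).
Asns, chr6:7693160-7693459, minus strand (RefSeq, GRCm38.p6): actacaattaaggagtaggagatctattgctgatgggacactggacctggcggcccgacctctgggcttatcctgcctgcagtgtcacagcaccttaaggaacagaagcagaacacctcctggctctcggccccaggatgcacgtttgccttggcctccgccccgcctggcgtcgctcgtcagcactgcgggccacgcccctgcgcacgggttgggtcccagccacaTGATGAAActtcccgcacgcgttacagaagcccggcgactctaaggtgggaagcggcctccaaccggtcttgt
The match begins 23 bases before the start. The motif occurred in 2.39% of the 14219 promoters and in 2.88% of the genes that have one, in 5 of 17 genes of this list and in 3 of 15 DATP genes. The sterol response element TCACNCCAC, also added later, occurred in 1 of 14 sterol and fatty acid genes, in 1.37% of all genes with a promoter and in 1.13% of all promoters.

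Of 22 genes of glycolysis and hypoxia 5 were higher and none lower at an unadjusted p below 0.05, where 7.2% of all genes were higher and 5.5% lower (median log2 fold change 0.56, 0.27 to 0.93 with each library left out, when 7, 1, 0 and 9 genes were higher). The glucose transporter gene Slc2a1 stood at 22.9 and 29.3 against 7.85 and 10.6 CPM, and Pkm, pyruvate kinase, at 263 and 408 against 125 and 176 CPM. Pgk1, phosphoglycerate kinase, was 2.23-fold higher. Of 15 chaperone genes 3 were higher, namely Hspa5, the chaperone of the endoplasmic reticulum (684 and 636 against 353 and 301 CPM), Hsp90ab1 (1521 and 2241 against 762 and 670.1 CPM) and the mitochondrial Hspd1 (256 and 223 against 126 and 80.5 CPM). The chaperone list as a whole had a median of 0.37 that turned to -0.11 without the second YFP+ library and to -0.01 without the first RFP+ library. Among 21 genes of detoxification 3 were lower and 1, the thioredoxin reductase gene Txnrd1 (log2 0.63), higher. Of the lower ones Cyp2b10, a detoxifying cytochrome P450, was at 1.81 and 1.98 against 11.96 and 19.5 CPM.

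Matrix, coagulation and chemokine genes had some members past an unadjusted p of 0.05. Of 23 matrix and basement membrane genes tested of 24 listed 9 were higher and none lower at an unadjusted p below 0.05, where 7.2% of all genes were higher (median log2 fold change 0.92, and 6, 5, 4 and 2 with a library left out). Timp2, an inhibitor of metalloproteases, stood at 126 and 186 against 42.1 and 69.4 CPM (log2 1.49, SE 0.41, adjusted p = 0.331). Of 13 coagulation and plasminogen genes tested of 15 listed 4 were higher and none lower (2, 1, 0 and 4 higher with a library left out). F3, tissue factor, was at 206 and 522 against 14.9 and 61.7 CPM (9.58-fold), the plasminogen activator gene Plat at 28.1 and 10.2 against 1.698 and 2.38 CPM, and its inhibitor gene Serpinb2 at 16.01 and 17.3 against 1.89 and 0.8397 CPM. Of 17 chemokines and colony-stimulating factors 3 were higher (2, 3, 3 and 2 with a library left out), all CXC chemokines that attract neutrophils. Cxcl3 stood at 151 and 98.5 against 23.7 and 18.3 CPM (5.91-fold; log2 2.56, SE 0.52, adjusted p = 0.314), Cxcl5 at 47.6 and 17.8 against 4.79 and 1.4 CPM and Cxcl1 at 204 and 74.4 against 49.1 and 23.1 CPM. The first RFP+ library was the higher for all 3. Pf4, named above, lies at chr5:90772435-90773383 between Cxcl5 (chr5:90759360-90761624) and Cxcl3 (chr5:90786103-90789600), and Ereg and Areg follow on the same chromosome at chr5:91074622-91093646 and chr5:91139599-91148432. This shared position was noticed after the values had been seen.

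Several genes that adult AT2 cells do not normally express were higher in RFP+ cells, namely 2 granzymes and mast cell proteases, 3 imprinted genes and 2 gastric and gut-like genes at an unadjusted p below 0.05. At that p 7.2% of all genes were higher. Only 5 of 13, 9 of 13 and 13 of 17 genes of these lists had counts enough to be tested, and a member can pass that filter through the group in which it is high. These numbers therefore describe the genes named here and are not evidence about the lists. With a library left out the granzyme and protease count was 0, 4, 1 and 0, the imprinted count 3, 2, 3 and 3 and the gastric and gut-like count 1, 2, 1 and 3. Gzme, a granzyme otherwise known from cytotoxic cells, stood at 593 and 198 CPM in RFP+ and 36.2 and 57.1 CPM in YFP+ libraries (8.498-fold; log2 3.09, SE 1.20, adjusted p = 0.374), and no Gzme UMI was found in either Confetti library. Mcpt8, a protease of basophils and mast cells, was at 232 and 45 against 9.51 and 4.62 CPM, and Mcpt1, which overlapped, at 61.2 and 2.64 against 3.89 and 0.2799 CPM. These genes lie together on chromosome 14 (Mcpt1, chr14:56017971-56020384, Mcpt8, chr14:56082166-56085273, and Gzme, chr14:56117626-56120625) and have near-identical relatives there, so that the split of UMIs between them is uncertain. Meg3, a maternally expressed long non-coding RNA, was at 226 and 922 against 9.096 and 58.4 CPM (17.2-fold; log2 4.10, SE 1.02, adjusted p = 0.317). Mirg, from the same imprinted domain, was at 6.42 and 18.7 against 0.453 and 2.099 CPM. Dlk1 (chr12:109452823-109463336), Meg3 (chr12:109541001-109571726) and Mirg (chr12:109729764-109749460) are neighbours on chromosome 12, although Dlk1 is expressed from the paternal and the others from the maternal allele. Of the RFP+ libraries the second was the higher for Meg3 and Mirg, and the first for Dlk1 and Gzme. Onecut2, a liver and gut transcription factor, reached 18.5 and 9.66 against 0.944 and 0.6998 CPM, and Foxq1, a forkhead factor of gastric epithelium, 27.5 and 31.4 against 5.699 and 5.18 CPM.

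These levels came from different numbers of cells. Krt8 and Areg were found in many cells of both colours, with a UMI in 65.6% and 70.6% of thinned RFP+ cells for Krt8 and 47.3% and 46.4% for Areg, against 44.5% and 32.4% and 28.2% and 10.8% of YFP+ cells. The barcodes removed by the Ptprc filter had Krt8 in 16.1% and 5.16% and Areg in 14.1% and 7.45% in the RFP+ libraries. They also had Hc, of the AT2 list, in 13.4% and 1.43%, so they need not all be leukocytes. Itga2 was found in 11.6% (exact binomial 95% interval 10.6% to 12.6%, counting error only) and 15.8% of RFP+ cells but in 0.233% (0.112% to 0.427%) and 1.23% of YFP+ cells. The removed barcodes had it in 0.671% and 1.43% in the RFP+ libraries at median depths of 8610 and 12711 UMIs before thinning, so the share of kept RFP+ cells was above theirs. Cldn4 gave 13.5% and 23.6% against 0.744% and 1.76%, and Cd177 2.98% and 4.67% against 0.0233% and 0.703%, beside 0.4298% of the removed barcodes of the second RFP+ library and none of the 149 of the first. Before thinning Cd177 was found in 7.59% and 11.8% of RFP+ cells and in 2.68% and 0.715% of those barcodes. Without thinning the Itga2 shares were 26.2% and 35.2% against 0.604% and 2.46%. Of the genes in the plot of shares Meg3 differed most between RFP+ replicates, at 19.3% and 50.1%. Spp1 was found in 15.9% and 20.6% of RFP+ cells but also in 23.5% and 47.1% of the removed barcodes of those libraries. In the YFP+ libraries it was found in 0.465% and 5.8% of kept cells and in 24.5% and 44.1% of removed barcodes. Which cells the Spp1 UMIs of the RFP+ libraries came from was not tested. In the first RFP+ library 17 of 475 Itga2+ cells (3.58%) also had a Cd177 UMI, beside 2.98% of all its cells, and in the second 13 of 448 (2.902%), beside 4.67%.

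In the YFP+ libraries Krt8 and Areg came from many cells (3141 and 1988 of the 4306 of the first library), but several rarer genes came from a few. In all, 17 of 4306 cells in the first YFP+ library had a Gzme UMI, and the 10 highest held 99.1% of its 958 UMIs. For Spp1 26 cells of that library had a UMI, and for Dlk1 10 cells. In the second YFP+ library Spp1 was less concentrated, with a UMI in 96 cells, and the 10 highest held 56.5% of its UMIs. Taking 7 genes together (Itga2, Cldn4, Ereg, Dlk1, Gzme, Hmga2 and Cdkn2a, chosen after their values were seen), 21 and 32 YFP+ cells had a UMI of at least 3 of these genes, which is 0.488% and 2.81% of cells. Sftpc took a median of 0.0908% and 0.808% of UMIs in those cells and 13.7% and 17.5% in the other YFP+ cells. In the RFP+ libraries 1095 and 951 cells met the same rule, 26.7% and 33.6% of cells, with a median Sftpc share of 0.0999% and 0.0876%. After thinning the shares were 9.71% and 8.35% in RFP+ and 0.209% and 0.527% in YFP+ libraries. None of 3906 and 4102 thinned Confetti cells met it, which allows shares of up to 0.0768% and 0.0731% if the limit is set at 3 cells.

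**Figure D4:**
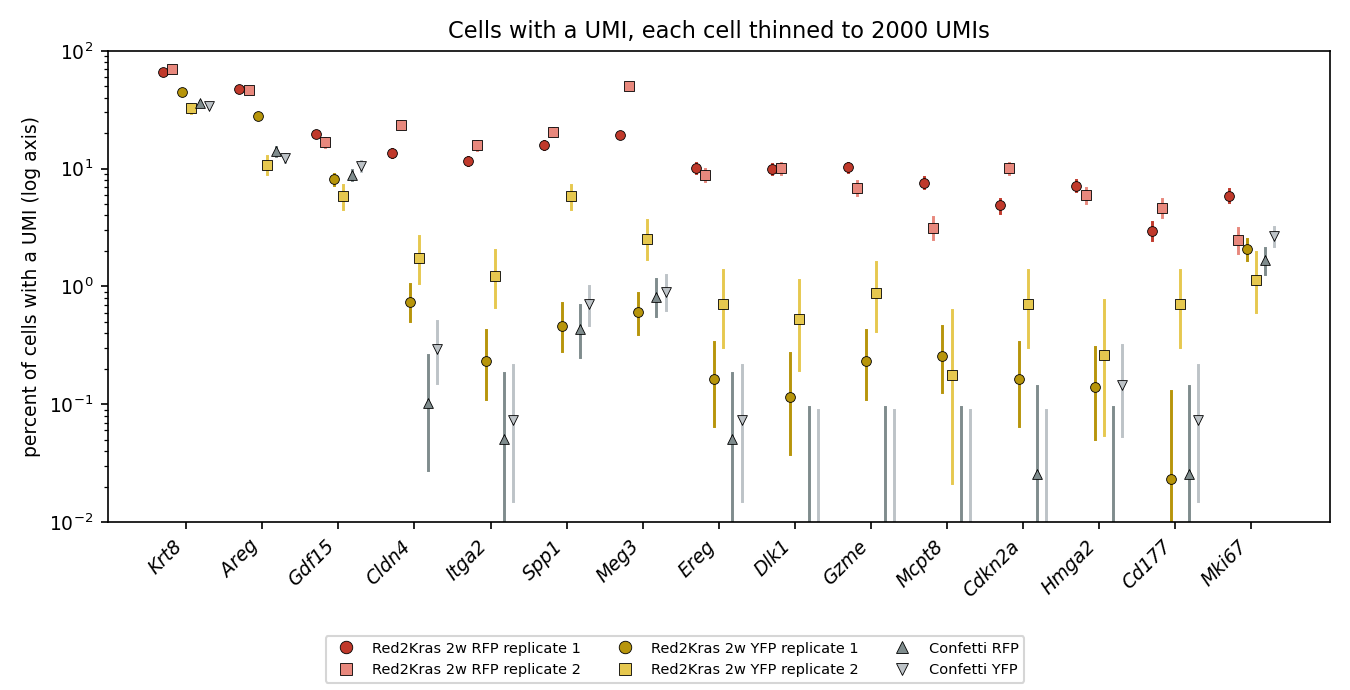
Percent of cells with a UMI of each gene after thinning every cell to 2000 UMIs, on a log axis, with exact 95% binomial intervals for counting error (vertical lines). Red points are RFP+, yellow points YFP+ and grey points Confetti libraries, and a point at 0 is not drawn. Itga2 lies at 11.6% and 15.8% in RFP+ and at 0.233% and 1.23% in YFP+ cells, while Mki67 spans only 1.14% to 5.89%.

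Other signalling lists were mixed. NF-kB subunits, inhibitors and targets had a median log2 fold change of -0.07 over 20 members (-0.26 to 0.18 with each library left out), with 1 higher at an unadjusted p below 0.05, the subunit gene Relb (18.2 and 20.6 against 13.7 and 8.54 CPM). Nfkbia, the inhibitor that NF-kB induces, overlapped at 285 and 159 against 233 and 118 CPM, and the first library of each colour was the higher. Il1r1, the receptor for interleukin-1, overlapped, at 10.5 and 11.7 against 12.2 and 10.2 CPM. At that p 7.2% of all genes were higher and 5.5% lower, and the shares of several lists here lie near these. Of 19 Wnt genes tested of 20 listed 4 were higher and 3 lower, with the feedback gene Nkd1 at 54.9 and 21.4 against 148 and 110.0 CPM, and Axin2, another Wnt target, at 4.195 and 1.63 against 9.21 and 4.898 CPM (log2 -1.29, SE 0.59, adjusted p = 0.414). Of 17 Notch genes 2 were higher and 1 lower, the receptor Notch2 (27.1 and 12.6 against 61.9 and 68.3 CPM). Of 21 TGF-beta and BMP genes 3 were higher and none lower, namely the inhibitor Smad7 (32.3 and 40.5 against 21.1 and 19.6 CPM), the target Id1 (183 and 289.9 against 103 and 147 CPM) and the ligand Bmp4 (109.9 and 179 against 72.2 and 69 CPM). YAP-TEAD genes had a median of 0.00 (-0.23 to 0.24 with each library left out) with 3 of 15 higher (17 listed). Of 15 interleukin-1 family genes 2 were lower, and of 22 interferon-response genes 2 were lower. Il18, among those 2 interleukin-1 family genes, overlapped. After thinning it was found in 5.36% of kept cells of the second YFP+ library, 0.419% to 0.778% in the other 2 weeks libraries and 21.6% to 70.6% of removed barcodes. Of 24 lung and embryonic transcription factors tested of 25 listed 4 were higher and 1 lower. Of 18 AP-1 and immediate-early genes 2 were higher, Fosl1 and Maff, and Fos and Jun overlapped. Of 12 S100 genes 2 were higher and 1, S100g, lower. Tonsl, a DNA repair protein, had few UMIs (3.39 and 2.099 against 2.72 and 0.9797 CPM), and it overlaps the gene Vps28, so that its UMIs are uncertain.

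Markers of other cell types remained in the kept cells, and the sums of some lists differed between the colours. The summed macrophage list stood at 1488 and 519.7 CPM in RFP+ and 2105 and 3054 CPM in YFP+ libraries. The Confetti sums of 4445 and 3498 CPM were higher still, although 16 and 24 Confetti cells met the rule for macrophage markers given next. Cd68, a lysosomal protein of macrophages, stood at 8.84 and 6.89 against 16.7 and 62.8 CPM, and Mpeg1, perforin-2, at 2.57 and 3.36 against 5.17 and 66.8 CPM, with the second YFP+ library far above the rest. Of 16 macrophage genes 5 were lower and none higher at an unadjusted p below 0.05, where 5.5% of all genes were lower (1, 3, 9 and 0 lower with a library left out), and no gene of the list was at 0 in both libraries of a group. Cells with at least 2 UMIs each of 2 or more macrophage markers numbered 108 and 60 in RFP+ and 41 and 98 in YFP+ libraries. Airway secretory markers summed to 914 and 2600.4 against 3435 and 18584 CPM, with Scgb1a1, the club cell secretoglobin, at 297 and 2074 against 2082 and 16709 CPM. Of 9 airway genes 2 were lower and 1 higher, and of 8 ciliated genes 2 were lower. Ciliated markers summed to 43.8 and 95.2 against 129.8 and 244 CPM. With the cells that carry such markers left out (airway list excepted), the DATP median was 2.09, the AT2 median -0.68 and the sterol and fatty acid median -0.92. The macrophage median was -3.06 with and -0.68 without them, but the rule chose those cells by genes of this same list. No conclusion is drawn from that change. With each library left out the macrophage median ranged from -5.22 to 0.38, and it was positive without the second YFP+ library, so that its sign rests on that library. The part of these cells in the results above was not tested beyond this.

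**Figure D5:**
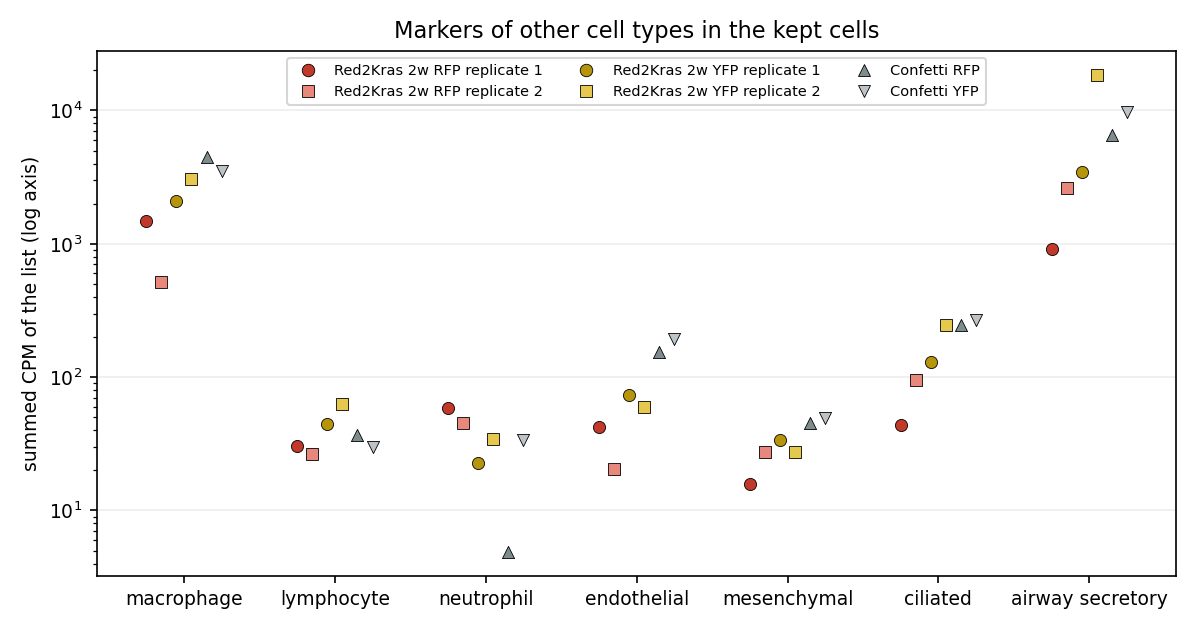
Summed CPM of 7 marker lists of other cell types in the kept cells of each 2 weeks and Confetti library, on a log axis. RFP+ libraries (red) lie below YFP+ libraries (yellow) for macrophage markers (1488 and 519.7 against 2105 and 3054 CPM) and for ciliated and airway secretory markers, while the neutrophil sum was higher in RFP+ libraries although the median log2 fold change of its 5 tested genes was -0.72, a value that ran from -2.85 to 0.54 with each library left out.

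Whether the difference between mutant and wildtype cells itself differed between 2 weeks and 4 days was tested as an interaction in the same fit. No gene passed (smallest adjusted p 1.00, edgeR's quasi-likelihood test with Benjamini-Hochberg adjustment), and 267 genes (1.8%) had an unadjusted p below 0.05, while DESeq2's Wald test also called 0. For several markers the RFP+ libraries of 4 days stood far apart. Cldn4 was at 16.1 and 181 CPM in RFP+ cells of 4 days and Itga2 at 5.04 and 147 CPM. Hist1h1b stood at 5.97 and 6.64 CPM in RFP+ and 2.47 and 3.15 CPM in YFP+ cells of 4 days, a gap that was 1.51 log2 units smaller than at 2 weeks (adjusted p = 0.9999). Fcgrt was closer at 4 days, at 18.8 and 17.7 against 24.8 and 24.7 CPM, so its log2 difference was lower at 2 weeks by 1.66 (adjusted p = 0.9999). Gdf15 already differed at 4 days, at 153 and 155 against 64.8 and 41.7 CPM, and Areg at 272 and 558 against 136 and 137 CPM.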

How the data were processed

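Single-cell 3′ libraries of sorted mouse lung cells were processed by the authors with Cell Ranger 3.1.0 against GRCm38, which aligned reads, dropped empty droplets and deposited UMI counts per gene and barcode for 10 libraries in 6 groups, not normalized. From these counts barcodes were filtered as described above, with no doublets removed, and summed per library. Sums of 14828 genes passing filterByExpr were fitted in edgeR 4.0.16 (R 4.3.3) by the quasi-likelihood test on all 10 libraries with a term for each group (4 residual degrees of freedom, TMM scaling, Benjamini-Hochberg adjustment). This shares the spread of all groups, and no library was dropped or imputed.

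Named genes were the 12 with the smallest unadjusted p in each direction at 20 CPM or more in the higher group and without overlap, up to 4 members at 5 CPM or more from each of 44 gene lists, and genes the study names for its cell states. Some results are not reported here. Members and lists were chosen with earlier results of these data known. Alternatives were DESeq2 1.42.0, other normalization, filters, cell sets (Scrublet scores from scanpy 1.11.5), thinning, replicate block and leaving out each library. The fit was tested on simulated data with 200 changed genes. Gene positions follow the GENCODE annotation of GRCm38.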

Additional observations from a re-analysis of the deposited data

Results flagged for a closer look

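For Id1, a target of BMP signalling, and H2-Eb1, a class II chain, the RFP+ and YFP+ libraries separated in opposite directions at 2 weeks and at 4 days. Id1 was at 183 and 289.9 CPM in RFP+ and 103 and 147 CPM in YFP+ cells at 2 weeks, and at 75.99 and 84.8 against 88.4 and 128 CPM at 4 days. Its log2 fold change at 2 weeks exceeded that at 4 days by 1.36. H2-Eb1 was at 403 and 340.0 against 544 and 658 CPM at 2 weeks and 843 and 909.9 against 758 and 665 CPM at 4 days, a difference of -0.995. In edgeR's quasi-likelihood test of these differences the adjusted p was 1.00 for both genes.

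Barcodes with a Ptprc UMI, which the comparison leaves out, made up 3.51% and 19.8% of the quality-passed barcodes in the RFP+ libraries of 2 weeks and 3.13% and 34.8% in the YFP+ libraries, where the Confetti libraries had 1.66% and 1.34%. The second library of each colour was the higher.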

How the results depend on the processing

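The edgeR test found no gene at an adjusted p below 0.05 (1883 at an unadjusted p below 0.05), and the count ranged from 0 to 0 when each 2 weeks library was left out in turn. It was 330 by DESeq2's Wald test (2024 unadjusted), 318 with no filter on low counts (2654 unadjusted) and 1 without cells that carry markers of another cell type when the airway list is not used, a setting added after seeing the data. With the replicate block over the 4 libraries of 2 weeks it was 2325, and with the replicate block over the 8 Red2Kras libraries it was 0, with 2773 unadjusted. Deviations of same-numbered libraries correlated at 0.568 between RFP+ and YFP+ at 2 weeks and at 0.454 at 4 days, and across the time points at 0.262 (RFP+), 0.198 (YFP+), 0.480 and 0.0898 (between colours), from 2 replicate numbers in each case. No source used here states that a number marks shared lungs or a shared day, so the main values are those without the block, and whether the numbers pair the libraries is not settled. The cause of these differences was not tested. The count was 0 under the other alternatives, with 689 (without the second RFP+ library) to 2262 (the 4 libraries of 2 weeks alone) at an unadjusted p below 0.05. The interaction with time gave 0 in every setting run, with 96 (without the second RFP+ library of 2 weeks) to 759 (without the first RFP+ library of 4 days) at an unadjusted p below 0.05.

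Of 2016 values for 112 genes under 18 alternatives, 2008 kept their direction, and the 8 others came from 3 genes whose libraries overlap. With each 2 weeks library left out, the log2 fold change of Hopx ranged from -1.08 (without the second RFP+ library) to 2.14, that of Nfkbia from -0.14 (without the first RFP+ library; -0.07 without the second YFP+ library) to 0.90, and that of Il1r1 from -0.13 to 0.12 (without the first YFP+ library; 0.06 without the first RFP+ library). Il1r1 was also 0.034 with no filter, 0.084 with Ptprc+ barcodes kept and 0.17 with each cell thinned. The medians of 26 of 44 lists kept their sign under all 18 alternatives.

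Each group had 2 libraries. RFP+ cells held more UMIs than YFP+ cells, and the second YFP+ library kept the fewest cells and many leukocyte barcodes. Libraries are pools of lungs, and their preparation days and the mice behind each pair are not given in the sources used here. Sums mix cell states, and the Confetti background is a single library per colour.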
